A study of Mus musculus with 6 samples.

Results

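The genes described here are 9 components and regulators of complement, C1s1, C1ra, C2, C3, C4b, Cfb, Cd55, Masp1 and Cfp, measured in mouse embryonic fibroblasts (MEFs), connective tissue cells grown from mouse embryos. They were chosen by name, through every probe set whose platform annotation gives only 1 of these genes. This found 16 probe sets for 7 of the 9 genes, out of 45037 probe sets and 18193 genes on the array. C4b is named only together with its close relative C4a, and C3 is not named in the annotation used here and was not analysed. RNA was taken from Atxn3-WT MEFs and Atxn3-KO MEFs, 3 samples of each with no treatment named in the labels, and each sample was hybridized to 1 Affymetrix expression array. Atxn3, which encodes a deubiquitinating enzyme, is disrupted in the mice that gave the Atxn3-KO cells, and the study's methods describe the wildtype mice as littermates of the knockout mice. The samples of a genotype are called biological replicates, but the age of the embryos and whether separate embryos or cultures were used are not given in the sources used here. The p-values below therefore speak only to the scatter among these 6 samples, which may be technical.

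Complement is a cascade of secreted proteases and their substrates that tags surfaces for uptake, attracts white blood cells and can open pores in membranes. In the classical pathway C1q carries the proteases C1r and C1s, which cleave C4 and C2, and in the lectin pathway MASP proteases do this work behind sugar-binding proteins. Both routes split C3, and the alternative pathway, with factor B and properdin, amplifies that step, while inhibitors in the fluid and on the membrane of host cells hold it back. The liver makes most of the circulating components, and fibroblasts and macrophages are known local sources.

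The arrays measured levels as log2 values after robust multi-array average normalization (RMA), which gives all arrays nearly the same distribution. A level is therefore read against the other probe sets of its array, and levels of different genes are not compared with each other. The marker sums below are an exception, since they add linear levels of different probe sets and the brightest weigh most. Two-sided p-values are those of limma, adjusted by Benjamini-Hochberg over all 45037 probe sets, and "rose" and "fell" below mean an adjusted p under 0.05. The brighter of the Atxn3 probe sets read 6.53 to 6.81 in Atxn3-WT MEFs and 3.43 to 3.73 in Atxn3-KO MEFs, and the dimmer one overlapped between genotypes. Fibroblast markers were strongly expressed except Lum, with 2 of 8 higher and 3 lower and a summed linear level of 70091 to 71033 in Atxn3-WT MEFs and 63233 to 66031 in Atxn3-KO MEFs. Of 12 macrophage markers 0 rose and 1 fell by limma (2 higher and 2 lower at an unadjusted p under 0.05). Their summed level was 662 to 707 and 691 to 701. Ptprc, Mrc1, Aif1 and Itgam were each under the 25th percentile of probe sets on every array, while Cd14, Csf1r and Lyz2 were each above the median. Cd14 read 7.61 to 7.83 in Atxn3-WT MEFs and 7.73 to 7.87 in Atxn3-KO MEFs. Of 9 measured hepatocyte markers 0 rose and 1 fell (1 higher and 2 lower unadjusted), with sums of 497 to 515 and 439 to 493. Of 5 epithelial markers Epcam and Krt18 rose, while Krt8, Cldn4 and Cdh1 did not pass and Cdh1 was dim in both genotypes. Their sums were 444 to 471 and 584 to 631. These were set mainly by Epcam, whose probe set carries the suffix _x_at, which marks cross-reading probes. The Krt18 probe set carries no such suffix. It read 4.31 to 4.40 in Atxn3-WT MEFs and 5.51 to 5.74 in Atxn3-KO MEFs, a log2 difference of 1.27 (adjusted p = 2.04e-05 from limma). Among all genes, each read by its brightest probe set, 17.1% rose and 14.7% fell, and these marker counts are to be read beside those shares. The part of other cell types in the results below was not tested.

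Complement proteases that start the cascade, C1s1, C1ra and Masp1, were higher in Atxn3-KO MEFs, while C2 and Cfb did not pass by their brightest probe sets and Cfp was lower. With each gene read by its brightest probe set, 4 of the 7 measured members rose (C1s1, C1ra, Masp1 and Cd55), 1 fell (Cfp) and 2 did not pass (C2 and Cfb). Of all 18193 genes 31.8% passed, 17.1% upward and 14.7% downward. The median log2 difference of the 7 members was 0.36, against 0.0021 over all genes. The members were chosen with earlier results of these data known, so their counts and median are descriptive and do not test the group. C1s1 and C1ra passed the stricter thresholds of the study's methods, 2-fold or more with an adjusted p no higher than 0.001. Of all genes 1.93% passed these, with 1.28% upward, and of all probe sets 1.31%, with 0.795% upward. Among the 16 probe sets, 8 rose, 3 fell and 5 did not pass, against 26.0% of all probe sets passing, 12.5% upward and 13.5% downward. The same 8 were those in which every Atxn3-KO array lay above every Atxn3-WT array (19.2% of all probe sets), and the same 3 were those in which every Atxn3-KO array lay below (21.9%, and 41.1% in either direction).

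**Figure D1:**
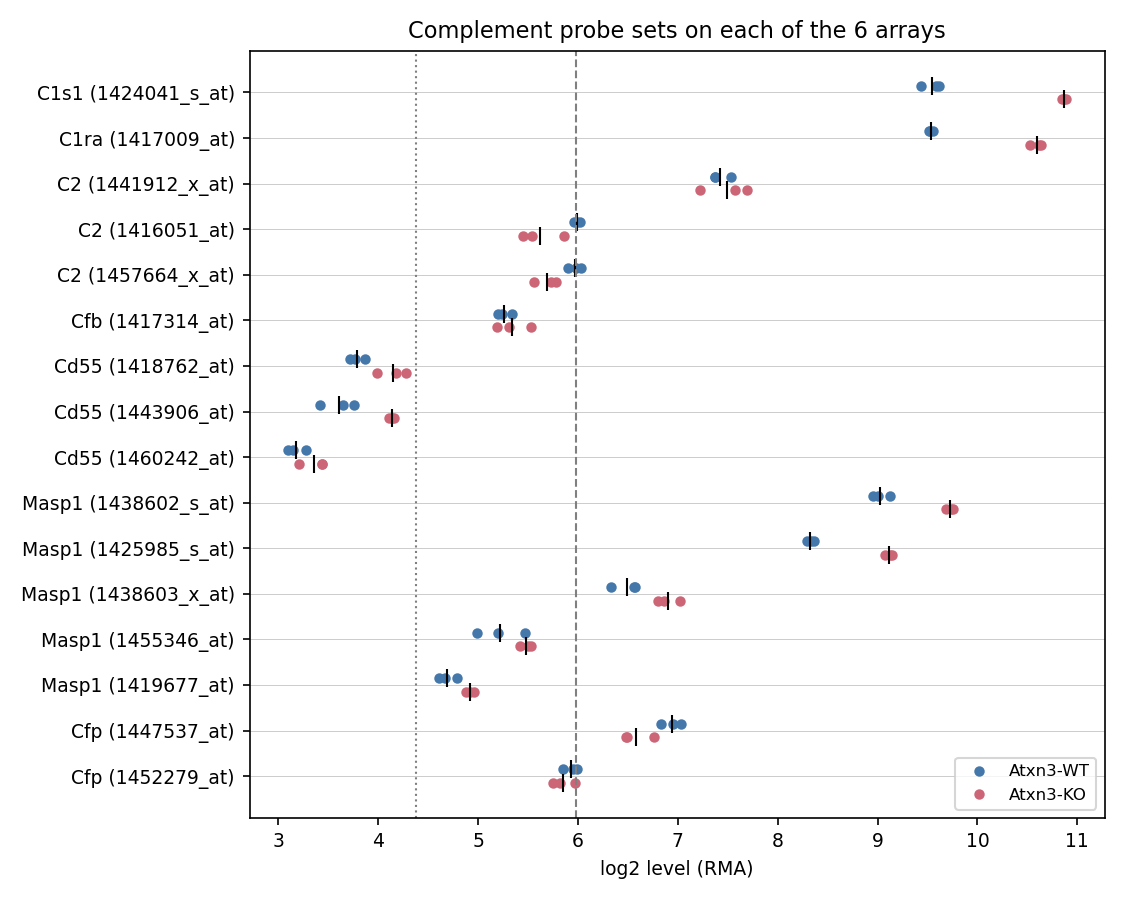
Log2 level (horizontal axis) of the 16 complement probe sets, 1 point per array, with Atxn3-WT in blue and Atxn3-KO in red, black bars for the group means, and dotted and dashed lines for the mean 25th percentile and median of the arrays. The C1s1, C1ra and brightest Masp1 points of the genotypes are widely apart, and all Cd55 points lie left of the dotted line.

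C1s1, which encodes the C1s protease that cleaves C4 and C2, had log2 levels of 9.58, 9.44 and 9.61 on the Atxn3-WT arrays and of 10.87, 10.89 and 10.85 on the Atxn3-KO arrays. The lowest Atxn3-KO level was far above the highest Atxn3-WT level, and the Atxn3-KO arrays were nearly equal to each other. The group means were 9.55 ± 0.094 for Atxn3-WT and 10.87 ± 0.019 for Atxn3-KO (SD, n = 3 each). The log2 difference was 1.32 (standard error 0.057, adjusted p = 7.84e-06 from limma), or 2.50-fold. C1s1 lay above 80.2% to 81.5% of all probe sets on the Atxn3-WT arrays and above 91.0% to 91.2% on the Atxn3-KO arrays. Its only probe set carries the suffix _s_at, which marks probes shared by several transcripts, and the neighbouring paralog C1s2 is not named by a probe set of its own here, so a contribution of C1s2 cannot be told apart.

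C1ra, which encodes the C1r protease that activates C1s, had log2 levels of 9.55, 9.51 and 9.52 in Atxn3-WT MEFs and of 10.62, 10.64 and 10.53 in Atxn3-KO MEFs. The genotypes were again fully apart. Its group means were 9.53 ± 0.020 for Atxn3-WT and 10.59 ± 0.060 for Atxn3-KO (SD, n = 3 each), a log2 difference of 1.06 (standard error 0.047, adjusted p = 9.58e-06 from limma), or 2.09-fold. A further probe set is annotated to both C1ra and its paralog C1rb. It read 5.76 to 6.25 in Atxn3-WT MEFs and 6.92 to 7.05 in Atxn3-KO MEFs, a log2 difference of 1.00 (standard error 0.12, adjusted p = 8.14e-04 from limma), close in size to that of the probe set for C1ra alone. In every alternative that gave them a value C1s1 and C1ra stayed past 2-fold, with log2 differences of 1.27 to 1.36 and of 1.04 to 1.10.

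The measured change of C1s1 was larger than that of C1ra on the same arrays. Different probe sets may respond unequally, so whether the RNA of the 2 genes changed unequally was not tested. The log2 difference between the 2 genes shifted by 0.26 from Atxn3-WT to Atxn3-KO MEFs, with an SD of 0.084 and 0.042 within the genotypes, and the arrays of the genotypes did not overlap in it. In the exact two-sided permutation test p was 0.1, which is the smallest value that 3 arrays against 3 allow, also after adjustment over 2 pairs. Over the 6 arrays, the genes whose log2 values, centred on their mean, were most like those of C1s1 were Dmpk (root mean square difference 0.046), Fibin (0.048) and Rtp4 (0.051), with log2 differences of 1.28, 1.40 and 1.28. C1ra ranked 103 and Masp1 399 among 18192 genes, and with 6 arrays this likeness is set mainly by the size of the difference between genotypes.

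C1ra and C1s1 lie beside each other on mouse chromosome 6 (GRCm38.p6, RefSeq), C1ra at chr6:124512621-124523440 on the plus strand and C1s1 at chr6:124530344-124542392 on the minus strand, with 6903 bases between their ends. They point towards each other, so their promoters lie at opposite ends of the pair, and C1rl, C1rb and C1s2 belong to the same cluster. The stretches upstream of C1ra (chr6:124512371-124512620, plus strand) and of C1s1 (chr6:124542393-124542609, minus strand) are shown because both genes rose, 5′ to 3′, with capitals for the only motif match. The C1s1 stretch stops where the annotated gene begins.
C1ra: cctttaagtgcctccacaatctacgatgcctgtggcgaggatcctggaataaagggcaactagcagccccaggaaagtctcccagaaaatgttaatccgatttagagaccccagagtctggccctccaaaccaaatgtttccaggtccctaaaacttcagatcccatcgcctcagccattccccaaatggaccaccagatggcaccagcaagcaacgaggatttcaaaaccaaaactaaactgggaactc
C1s1: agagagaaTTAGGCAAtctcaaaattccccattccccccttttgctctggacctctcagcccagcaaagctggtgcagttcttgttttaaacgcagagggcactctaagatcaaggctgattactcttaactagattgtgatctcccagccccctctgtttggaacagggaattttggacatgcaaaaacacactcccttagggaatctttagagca
Windows of 250 bases before the start were searched on both strands for a STAT site (TTCNNNGAA), the core of the interferon-stimulated response element, a C/EBP site (TTGCNNAA), a TATA box (TATAAA) and the NF-kB motif. The motifs were found in 7.02%, 2.98%, 9.56%, 12.4% and 7.25% of 32851 RefSeq promoter windows. The C1s1 window holds 1 C/EBP match, on the opposite strand at 242 to 235 bases before the start, and a second annotated C1s1 start has no match. The C1ra window holds no match to any of the 5. Its GC content was 49.6% and that of C1s1 48%, both below the median window (52.4%), with 5 and 1 CpG against a median of 6. Windows were also listed for Cd55, C3 and Cfp, of which that of C3 alone held a match, to the C/EBP site at 45 to 38 bases before the start. The Cd55 window lies wholly within the annotated gene, so the sequence upstream of that gene was not searched. A match is a description of letters only.

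Masp1 encodes the proteases MASP-1 and MASP-3 of the lectin pathway by alternative splicing, and its 5 probe sets all had higher means in Atxn3-KO MEFs. The brightest read 9.12, 8.95 and 9.01 in Atxn3-WT MEFs and 9.68, 9.76 and 9.73 in Atxn3-KO MEFs. Its log2 difference was 0.70 (standard error 0.056, adjusted p = 1.54e-04 from limma), or 1.62-fold. The next brightest rose from 8.34, 8.29 and 8.36 to 9.08, 9.15 and 9.12, a log2 difference of 0.79 (standard error 0.045, adjusted p = 3.12e-05). On neither did the genotypes overlap, and the differences were many times the spread within a genotype. The 3 dimmer Masp1 probe sets had smaller differences of 0.41, 0.26 and 0.23, of which the second did not pass (adjusted p = 0.139 from limma). The 3 brightest carry a suffix that marks shared or cross-reading probes. Without such probe sets Masp1 is read by the one at 0.26, and its call is lost. The dimmest did not pass without Atxn3-WT replicate 1 or 3 or without Atxn3-KO replicate 1 or 3 (adjusted p = 0.0612 to 0.0735), and the one at 0.26 passed without Atxn3-WT replicate 1 (0.39, adjusted p = 0.0170) and was at 0.15 without Atxn3-WT replicate 2 (adjusted p = 0.304). The sources used here do not say which transcript each probe set reads. None of the other 7 measured genes of the lectin pathway passed, beside 17.1% upward and 14.7% downward among all genes. At an unadjusted p under 0.05 by limma 0 of them were higher and 1 lower. Masp2, the second protease of that pathway, had a log2 difference of -0.055 (standard error 0.10).

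The genes for C1q, the recognition protein that C1r and C1s need, did not pass the test. Named for this role rather than by the rule for named genes, C1qa, C1qb and C1qc had log2 differences of 0.0064 (standard error 0.078), -0.077 (standard error 0.056) and 0.016 (standard error 0.088), with adjusted p-values of 0.966, 0.374 and 0.921 from limma. C1qb and C1qc were under the arrays' 25th percentile, where differences are compressed. Serping1 encodes the C1 inhibitor, the serpin that inactivates C1r, C1s and MASP proteases. It read 6.07, 5.70 and 5.98 in Atxn3-WT MEFs and 6.20, 6.06 and 6.19 in Atxn3-KO MEFs, so that the genotypes overlapped. Its log2 difference was 0.23 (95% interval 0.0073 to 0.46) with an adjusted p of 0.126 from limma, and it was 0.13 without Atxn3-WT replicate 2, the lowest of the Atxn3-WT arrays (adjusted p = 0.244). On the same arrays the measured change of C1s1 was larger than that of Serping1 by 1.09 on the log2 scale (SD 0.11 and 0.097 within the genotypes, exact two-sided permutation p = 0.1, the smallest possible), with no overlap between the genotypes. Here too different probe sets may respond unequally, and an unequal change in RNA was not tested.

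Among the substrates and enzymes of the next step, C2 gave mixed values, and a probe set shared by C4a and C4b, described below, rose. C2, the protease precursor that joins C4b in the C3 convertase, was read by 3 probe sets that did not move alike. Its brightest carries the suffix _x_at, which marks cross-reading probes. This probe set read 7.53, 7.37 and 7.38 in Atxn3-WT MEFs and 7.69, 7.57 and 7.23 in Atxn3-KO MEFs, a log2 difference of 0.070 (95% interval -0.21 to 0.35, adjusted p = 0.722 from limma). The Atxn3-KO arrays spread around the Atxn3-WT arrays on it. The other 2 C2 probe sets, near the middle of the arrays' range, fell by 0.37 (standard error 0.10, adjusted p = 0.0340) and by 0.28 (standard error 0.069, adjusted p = 0.0223), with no overlap between genotypes. When single arrays were left out, the first of these passed only without Atxn3-KO replicate 2, with an adjusted p of 0.0794 to 0.104 without each of the other 5, and it did not pass with array weights (adjusted p = 0.0554). The second, which also carries that suffix, no longer passed without Atxn3-WT replicate 1, Atxn3-WT replicate 3 or Atxn3-KO replicate 2 (adjusted p = 0.0676, 0.0745 and 0.0538). Without suffixed probe sets C2 is read by the first of these and fell. With the mean of all its probe sets C2 also fell (-0.19, adjusted p = 0.0299 from limma).

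A probe set annotated to both C4a and C4b, near-identical genes for the fourth component, read 5.95, 6.19 and 6.22 in Atxn3-WT MEFs and 6.92, 6.78 and 6.76 in Atxn3-KO MEFs. Every Atxn3-KO level was above every Atxn3-WT level, with a log2 difference of 0.70 (standard error 0.083, adjusted p = 8.84e-04 from limma). It is not counted among the members, because the 2 genes cannot be told apart. C2, Cfb and C4b lie within the MHC class III region of chromosome 17 (GRCm38.p6), where Cfb (chr17:34856374-34862514) and C2 (chr17:34862602-34882100) are 87 bases apart. Of 11 measured neighbours in that region 2 rose and 0 fell by limma (5 and 0 at an unadjusted p under 0.05), an upward share near the 17.1% of all genes. These were Zbtb12 at 0.32 (standard error 0.053) and Nelfe at 0.32 (standard error 0.041).

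**Figure D2:**
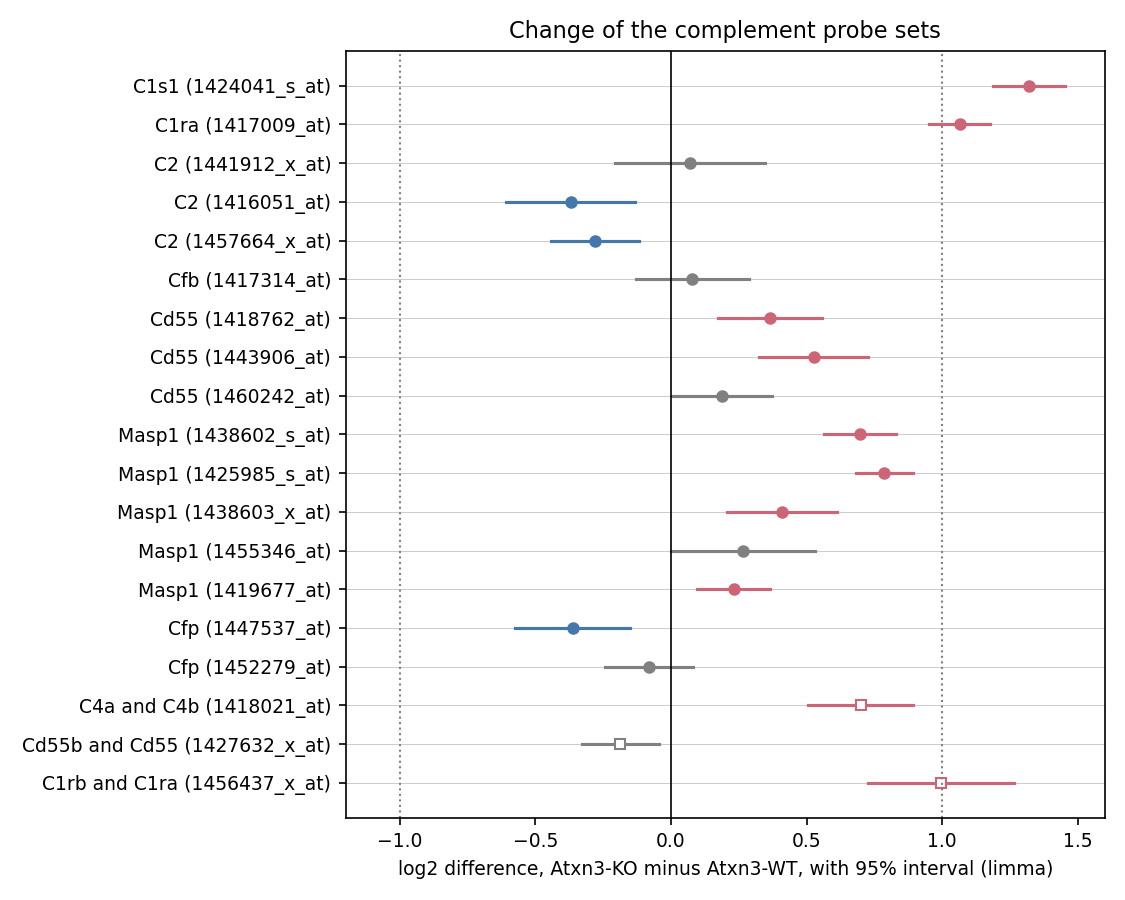
Log2 difference between Atxn3-KO and Atxn3-WT MEFs (horizontal axis) with 95% intervals from limma for the 16 complement probe sets (filled circles) and 3 probe sets that name a member with a paralog (open squares), red for higher, blue for lower and grey for not passed at an adjusted p of 0.05. C1s1 at 1.32 and C1ra at 1.06 lie beyond the dotted line of a 2-fold change, and the 3 C2 probe sets lie on both sides of 0.

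In the alternative pathway Cfb did not pass and Cfp fell. Cfb, factor B, read 5.34, 5.24 and 5.20 in Atxn3-WT MEFs and 5.53, 5.19 and 5.31 in Atxn3-KO MEFs. The genotypes overlapped, with Atxn3-KO replicate 1 the highest and Atxn3-KO replicate 2 the lowest, and a log2 difference of 0.079 (95% interval -0.13 to 0.29, adjusted p = 0.585 from limma). A measured 2-fold change lies outside the interval. Cfb lay above only 39.1% to 44.0% of all probe sets, where differences may be compressed, so the interval does not bound its change in RNA. Cfp, properdin, which stabilizes the alternative C3 convertase and lies on chromosome X, read 7.03, 6.95 and 6.83 in Atxn3-WT MEFs and 6.48, 6.49 and 6.76 in Atxn3-KO MEFs. Atxn3-KO replicate 3 came close to the lowest Atxn3-WT level. The brightest Cfp probe set fell by 0.36 (standard error 0.090, adjusted p = 0.0236 from limma). It did not pass without Atxn3-WT replicate 1, Atxn3-WT replicate 2, Atxn3-KO replicate 1 or Atxn3-KO replicate 2 (adjusted p = 0.0806, 0.0679, 0.0773 and 0.0765). The other Cfp probe set overlapped between genotypes and had a difference of -0.082 (standard error 0.069, adjusted p = 0.449), which was -0.14 without Atxn3-KO replicate 3, -0.051 with Atxn3-WT replicate 1 left out and -0.035 with Atxn3-KO replicate 1 left out.

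Cd55 encodes decay accelerating factor, a membrane protein that breaks up C3 convertases on host cells. Its 3 probe sets were all under the arrays' 25th percentile in both genotypes, a range in which differences are compressed. The brightest read 3.86, 3.72 and 3.76 in Atxn3-WT MEFs and 4.18, 3.98 and 4.28 in Atxn3-KO MEFs. The groups did not overlap, and its log2 difference was 0.36 (standard error 0.081, adjusted p = 0.0149 from limma). It did not pass without Atxn3-WT replicate 2 or Atxn3-KO replicate 1 (adjusted p = 0.0522 and 0.0513). The second Cd55 probe set rose by 0.53 (standard error 0.086, adjusted p = 0.00379) and the third had 0.19 (standard error 0.078, adjusted p = 0.128), which passed without Atxn3-KO replicate 2 (0.26, adjusted p = 0.0368). A probe set annotated to both Cd55 and Cd55b had a difference of the other sign, -0.19 (standard error 0.061, adjusted p = 0.0615).

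**Figure D3:**
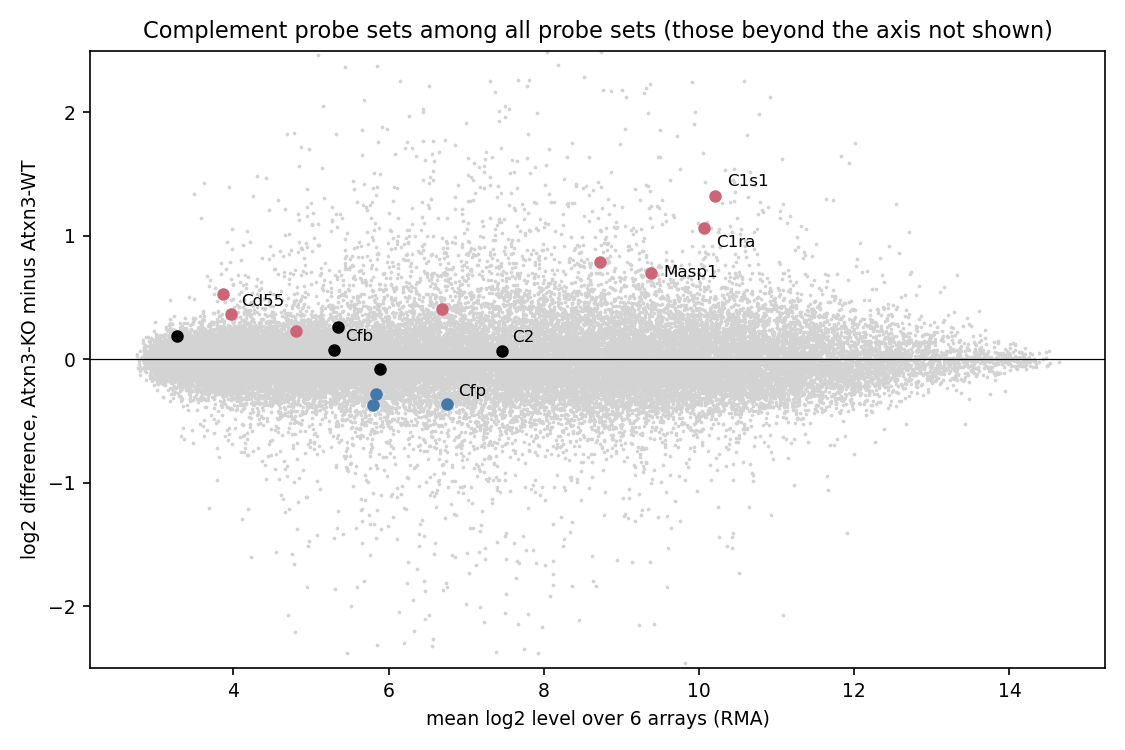
Mean log2 level over the 6 arrays (horizontal axis) against the log2 difference, Atxn3-KO minus Atxn3-WT (vertical axis), with all probe sets in grey, complement probe sets that rose in red, that fell in blue and that did not pass in black, and the brightest of each gene labelled; 53 probe sets beyond 2.5 are not drawn. C1s1, C1ra and Masp1 lie in the upper right, and Cd55 lies at the left edge among dim probe sets.

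Of the 7 measured membrane regulators 1 rose (Cd55), 3 fell (Cd59a, Cr1l and Susd4) and 3 did not pass, beside 17.1% upward and 14.7% downward among all genes. Their median log2 difference was -0.12. Cd59a, which encodes the inhibitor of the membrane attack complex, read 8.35, 8.27 and 8.42 in Atxn3-WT MEFs and 7.68, 7.84 and 7.67 in Atxn3-KO MEFs. It fell by 0.61 (standard error 0.066, adjusted p = 5.98e-04 from limma), and its other probe set fell by 0.99. Cr1l, the rodent regulator Crry that controls C3 convertases, read 9.61, 9.60 and 9.66 in Atxn3-WT MEFs and 9.16, 9.19 and 9.25 in Atxn3-KO MEFs. It fell by 0.42 (standard error 0.046, adjusted p = 6.31e-04), while its 2 dim probe sets did not pass. Susd4, a sushi domain protein known to inhibit complement, fell by 0.39 (standard error 0.061, adjusted p = 0.00299). The genotypes did not overlap on the brightest probe set of any of these 3 genes, but they overlapped on the 2 dim Cr1l probe sets.

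Of the 41 other complement genes measured, 2 rose, 3 fell and 36 did not pass, beside 17.1% and 14.7% of all genes. Their median log2 difference was 0.011, and 13 of them were under the arrays' 25th percentile in both genotypes. Besides the membrane inhibitors that fell, Clu rose by 0.42 (standard error 0.071, adjusted p = 0.00433 from limma), in the same direction as its 3 other probe sets. Clu encodes clusterin, a secreted chaperone that also blocks the terminal pathway. C3ar1, the receptor for the C3a fragment, read 4.24, 4.68 and 4.32 in Atxn3-WT MEFs and 4.95, 5.18 and 4.94 in Atxn3-KO MEFs. It rose by 0.61 (standard error 0.12, adjusted p = 0.00969) from a low level, and its 3 probe sets all rose. C3ar1 is typical of myeloid cells, whose marker levels are given above, and their part in the result was not tested. In these bulk samples more cells that express a gene and more RNA per cell cannot be told apart. Of the 6 measured terminal pathway genes 0 passed by limma, beside 17.1% upward and 14.7% downward among all genes. At an unadjusted p under 0.05 by limma 1 was higher (C8g). C6 and C8g, given by the rule for named genes, had log2 differences of 0.19 (standard error 0.087, adjusted p = 0.164) and 0.20 (standard error 0.062, adjusted p = 0.0562).

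**Figure D4:**
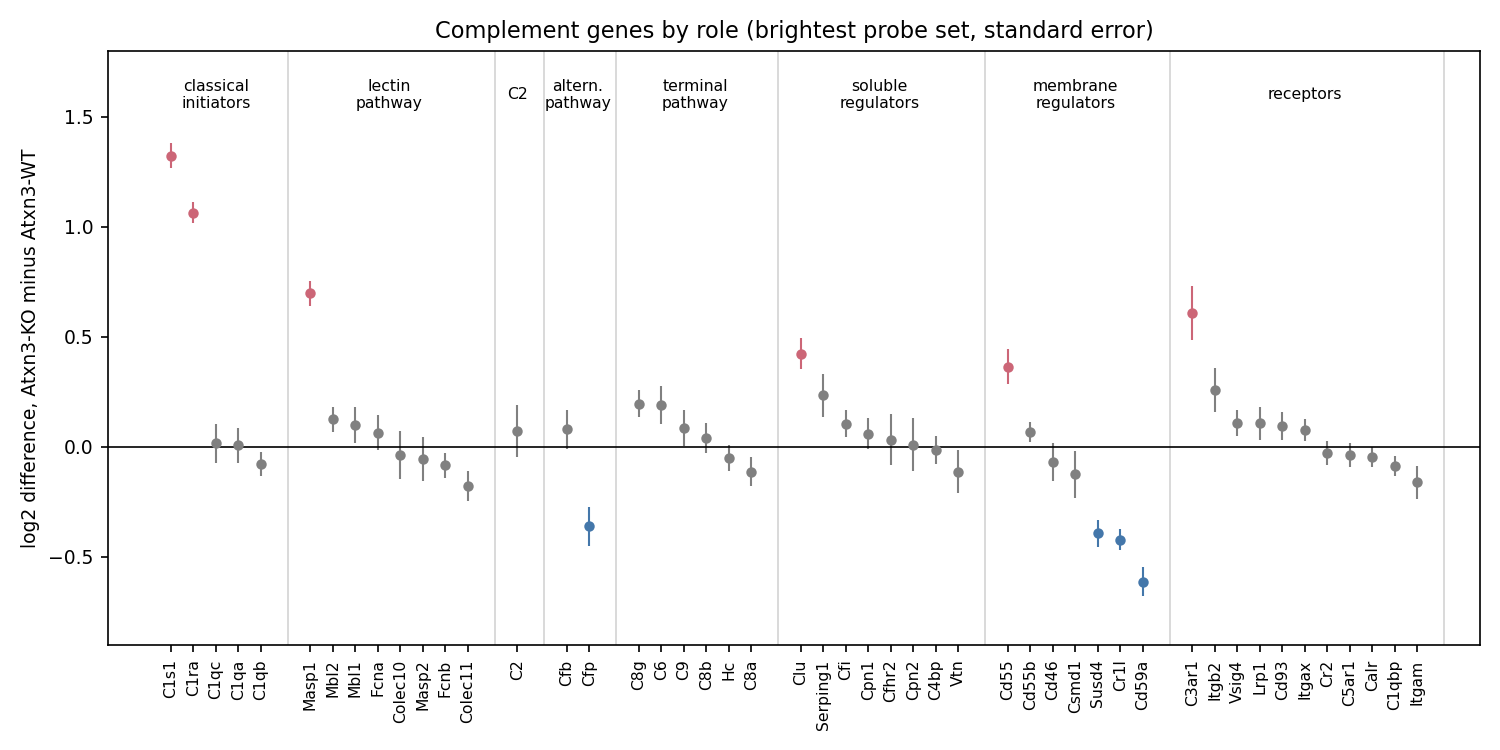
Log2 difference, Atxn3-KO minus Atxn3-WT (vertical axis), of each measured complement gene by its brightest probe set, with standard errors from limma, grouped by role; red is higher, blue lower and grey not passed at an adjusted p of 0.05. C1s1, C1ra and Masp1 are the highest points, and Cd59a, Cr1l and Susd4 are the lowest.

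Genes for signals and factors known to raise complement transcription moved in both directions. Of 28 measured, 11 rose, 3 fell and 14 did not pass, beside 17.1% upward and 14.7% downward among all genes, and their median log2 difference was 0.043. The largest of those that rose were Esr1, an estrogen receptor, at 1.11 (standard error 0.11), Il6, a cytokine of the acute phase response, at 1.04 (standard error 0.069), and Cebpd, a C/EBP factor of the same response, at 0.70 (standard error 0.070). Cebpd read 10.65, 10.75 and 10.79 in Atxn3-WT MEFs and 11.32, 11.43 and 11.55 in Atxn3-KO MEFs, with no overlap. The genes of this list that fell were Irf1, Cebpa and Ifnar2, named after their values were seen, at -0.22, -0.20 and -0.14. Whether any of these genes bears on the complement genes was not tested.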

How the data were processed

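Expression in 3 Atxn3-WT and 3 Atxn3-KO MEF samples was measured on Affymetrix arrays with 250 ng of total RNA each labelled, per the labels, and samples were grouped by their labels. The authors deposited log2 values normalized by RMA. RMA and limma are the tools given in the submitters' processing notes, without versions. RMA equalizes the arrays' distributions, so a shift common to all genes is removed. Of 45101 probe sets, 64 controls were left out. limma 3.58.1 in R 4.3.3 (lmFit, eBayes, equal weights, no filter) compared the genotypes, with Benjamini-Hochberg adjustment over 45037 probe sets. The methods name a weighted linear model without the weights, which were therefore an alternative. Genes were named from the platform annotation (34945 probe sets name 1 gene, 932 several, 9160 none) and read by the probe set with the highest mean level. The members and lists were chosen with earlier results of these data known. Named genes were all members, up to 4 genes per role list with the largest change past an adjusted p of 0.05 (the 2 brightest where none passed), up to 3 per context list, and the 3 genes most like C1s1. The fit was tested on simulated data in which 200 probe sets were changed, far fewer than passed in the real data. At an adjusted p under 0.05 it recovered 70% of log2 effects of 0.5, 96% of those of 1, 100% of those of 1.5 and 94% of those of -1. The fit was repeated with array weights, with a replicate block, after further normalization, with a level filter, with another variance model, under other ways to pick the probe set of a gene, and without each array in turn. Within a genotype arrays correlated at 0.998 to 0.999, no arrays were copies, and the number of arrays limits the precision. Positions and promoters came from RefSeq tables of GRCm38.p6.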

Additional observations from a re-analysis of the deposited data

How the results depend on the processing

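C1s1, C1ra, Clu, Cd59a, Cr1l, Susd4 and C3ar1 kept their direction and call in every alternative that gave them a value. The count of members that rose was 2 and of those past the methods' thresholds 1 when probe sets with shared suffixes were left out, which removes C1s1 and reads Masp1 by a dimmer probe set. The count of members that fell was 2 (C2 and Cfp) under that rule and 2 with the mean of all probe sets of a gene, and it ranged from 0 to 1 when single arrays were left out. With the replicate number as a block it was 0, because Cfp reached an adjusted p of only 0.0633, and Serping1 rose (adjusted p = 0.0496). Among the members' other probe sets, the dimmest of Masp1 also lost its call under the block (adjusted p = 0.0608), and no other call of a member's probe set changed. Samples with the same number did not deviate together (r = 0.021, -0.023 and -0.036), so the numbers were not taken as pairs. The count of other complement genes that rose was 1 with probe sets under the median level left out, which removes C3ar1, and ranged from 2 to 4 when single arrays were left out, the highest without Atxn3-WT replicate 2, where C8g and Itgb2 also passed. When single arrays were left out, the difference of the brightest C2 probe set ranged from -0.029 to 0.21 and that of Cfb from -0.015 to 0.16, both lowest and of the opposite sign without Atxn3-KO replicate 1 and passing in neither case. Planned comparisons of C3 with Cfb, C3 with Cd55 and C2 with C4b, and the genes most like C3, were not run for lack of a probe set naming C3 or C4b alone. Comparisons with C1s1 could not be made without its shared probe set. No probe set has a detection call here, so whether dim levels such as those of Cd55 lie above background is not known.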
